A study of Mus musculus with 18 samples.

Results

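The 9 genes described here encode Krüppel-like factors (Klf2, Klf3, Klf4, Klf10, Klf11, Klf12, Klf13, Klf15 and Klf16), and their rows were taken by gene symbol from a table of normalized mRNA values in mouse liver. All 9 had a row and were among the 14449 genes tested. The 9 genes were chosen with earlier results of these data known, so that their counts beside those of all genes are descriptions only. The table holds 13 Klf genes in all, and the 4 others (Klf1, Klf6, Klf7 and Klf9) served as a comparison list. The livers came from wild-type male mice aged 8 to 9 weeks, kept under 12 h of light and 12 h of dark with no other treatment, and whole intact livers were taken at zeitgeber time (ZT, hours after lights on) 1, 5, 9, 13, 17 and 21. Each time point had 3 mice, each mouse gave 1 liver, and the 18 livers span a single day, so a daily rhythm was seen over 1 cycle only. Polyadenylated RNA was sequenced to between 10268168 and 23242842 estimated reads per liver, a depth inferred from the lowest value in each column. Values are given as deposited, nominally per 1000000 reads, with totals per liver from 941088 to 1077230.

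Krüppel-like factors are transcription factors that bind GC-rich and CACCC sequences through zinc fingers at their carboxyl end, while their amino ends recruit different partners. Klf10, Klf11, Klf13 and Klf16 carry a short helix that binds the SIN3A corepressor, and Klf3 and Klf12 bind the corepressor CtBP. Klf15 is known in liver as a regulator of amino acid breakdown and gluconeogenesis, and Klf2 and Klf4 are best known from endothelial cells and macrophages.

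Promoter sequence was at hand for 7 of the 9 genes, from RefSeq on GRCm38.p6, as 250 bases before to 50 after the start, and Klf10 and Klf16 had no entry. Shown here are 3 of them, down to 20 bases after the start, with E-boxes (CACGTG, the element bound by CLOCK and BMAL1) and CACCC boxes (either strand) in capitals. Klf13 is shown as the gene with the lowest P-values over the day, Klf15 as the promoter with the most E-boxes, and Klf11 as the only promoter with an E-box among the entries of genes that passed the F test over time points.
Klf13 (chr7:63938896-63939165, minus strand): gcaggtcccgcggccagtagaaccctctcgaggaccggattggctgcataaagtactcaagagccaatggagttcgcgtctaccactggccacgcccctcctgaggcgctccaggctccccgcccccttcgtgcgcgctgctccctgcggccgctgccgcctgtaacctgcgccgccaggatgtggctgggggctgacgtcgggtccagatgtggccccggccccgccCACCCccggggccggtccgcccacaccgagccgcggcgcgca
Klf15 (chr6:90462326-90462595, plus strand): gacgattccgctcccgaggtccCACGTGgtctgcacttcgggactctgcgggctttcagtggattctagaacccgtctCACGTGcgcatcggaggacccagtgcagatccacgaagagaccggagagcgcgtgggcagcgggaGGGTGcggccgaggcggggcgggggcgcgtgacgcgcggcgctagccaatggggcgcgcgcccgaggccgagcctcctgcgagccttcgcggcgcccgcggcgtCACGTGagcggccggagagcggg
Klf11 (chr12:24651121-24651390, plus strand): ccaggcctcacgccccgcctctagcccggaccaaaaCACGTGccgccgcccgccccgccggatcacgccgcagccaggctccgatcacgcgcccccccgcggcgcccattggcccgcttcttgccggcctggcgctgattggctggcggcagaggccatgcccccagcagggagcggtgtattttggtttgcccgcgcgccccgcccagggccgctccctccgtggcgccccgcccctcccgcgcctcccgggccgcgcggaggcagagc

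Klf15 held 3 E-boxes, which began 228, 172 and 3 bases before the start. At least 1 E-box lay in 7.2% of the 27025 promoters of the table, and 3 or more in 24 promoters (0.089%). Klf11 and Klf4 held 1 each, 214 and 182 bases before the start. The CACCC box was found in Klf2, Klf3, Klf12, Klf13 and Klf15, with 5 matches in Klf3, and in 56.7% of all promoters. Klf12 alone held a heat shock element (GAANNTTC, in 8.0% of all promoters). None of the 7 held a D-box (TTANNTAA, 6.1%), the ROR element core (TAGGTCA, 2.6%) or a glucocorticoid element (ACANNNTGT, 6.9%). Positions are counted from the RefSeq starts. Those of Klf2, Klf3, Klf11 and Klf12 lie inside the genes as GENCODE draws them, farthest in Klf12. Both strands were searched over the whole window, and a match is a string of letters only. The promoters had a median GC content of 73.3%, against 52.7% over all promoters.

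On GRCm38 (GENCODE M21) the genes lie on 9 different chromosomes and all are protein-coding. Those that passed the F test are Klf13 (chr7:63886351-63938915, minus strand), Klf16 (chr10:80567124-80577321, minus), Klf10 (chr15:38291463-38300706, minus), Klf11 (chr12:24651274-24662789, plus) and Klf2 (chr8:72319033-72321656, plus). Levels differed widely between the genes. Divided by the summed length of each gene's exons, Klf15 stood highest, at a normalized value of 36.7 per kilobase, followed by Klf10 (6.52), Klf13 (5.2) and Klf3 (4.56). Klf2 (2.22), Klf11 (1.99), Klf16 (1.18) and Klf12 (0.856) were lower, and Klf4 was lowest at 0.366. Klf4 rested on 3 to 66 estimated reads per liver, Klf16 on 9 to 122 and Klf2 on 17 to 188, so counting error weighs most on these genes, while Klf15 rested on 1014 to 2442. The exons of Klf3 share 404 bases with those of an opposite-strand transcript, Gm20033, and reads of the pair cannot be told apart without strand. The library kit is not stated to keep strand.

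**Figure D1:**
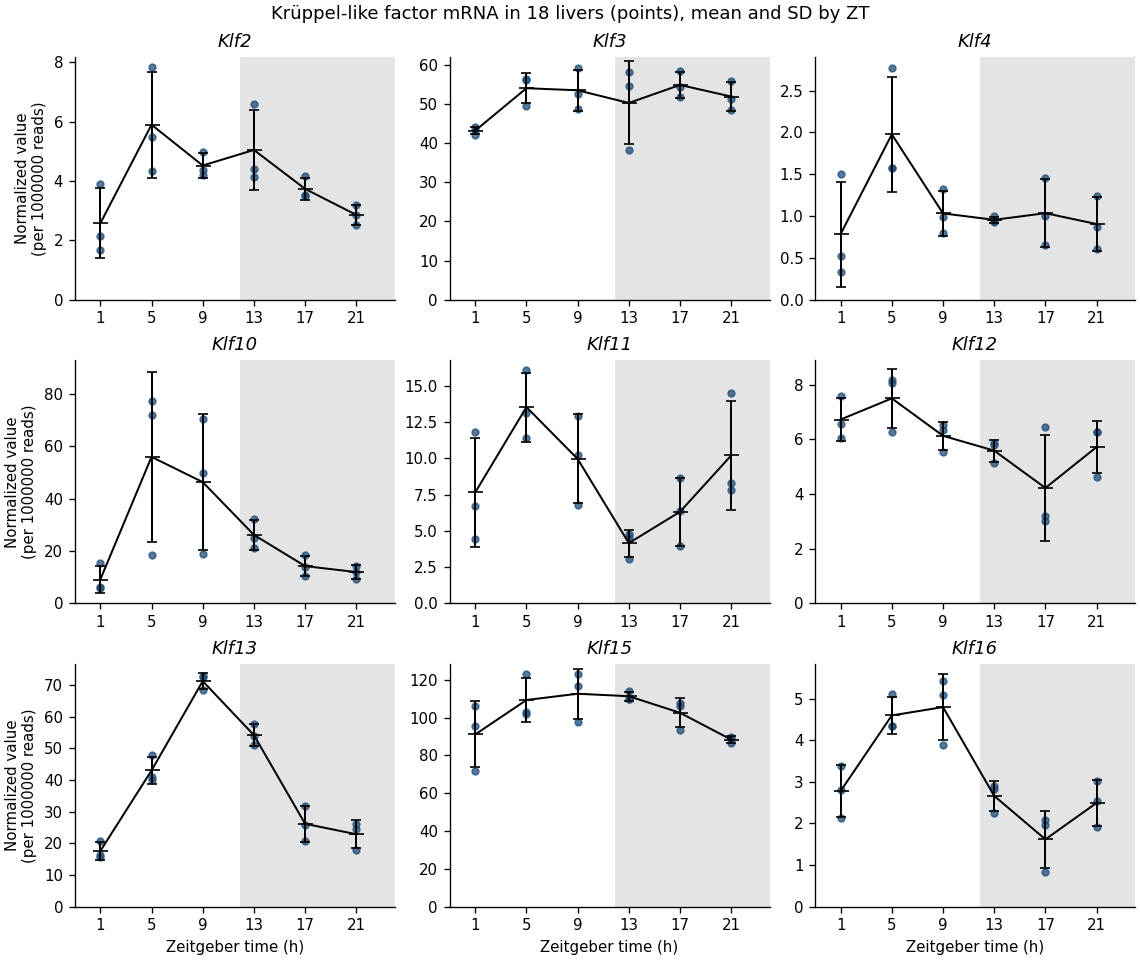
Normalized value per 1000000 reads (y axes, linear from 0) of each of the 9 genes against zeitgeber time (x axes, h), with 1 point per liver, the mean of 3 livers and its SD; the dark phase is shaded. Klf13 climbs to 71.2 at ZT9 with little spread, Klf10 peaks at ZT5 with a wide spread, and Klf3 and Klf15 stay within a narrow band.

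Across the day, 5 of the 9 genes differed between time points and 6 followed a 24 h cosine. Klf2, Klf10, Klf11, Klf13 and Klf16 passed limma's F test over the 6 time points at an adjusted P-value under 0.05, against 26.3% of all genes tested. Klf2, Klf10, Klf12, Klf13, Klf15 and Klf16 passed the 24 h cosine test, against 35.3% of all genes. Klf3 and Klf4 passed neither. For the 12 h component, 0 of 9 passed limma's test, against 0.872% of all genes. At an unadjusted P-value under 0.05, 2 of 9 passed it, against 1815 of the 14449 genes tested. The rhythm algorithms, as rewritten here, gave fewer calls, and Klf13 and Klf16 were the only members called by each of them. With their own runs on these livers the authors report more genes for each algorithm than were called here. JTK, which ranks the livers against cosine orders, called 14.1% of all genes. MC, which combines JTK with a Lomb-Scargle periodogram, called 18.3%, and the CircaN cosine curve, fitted with a free period of 20 to 28 h and an R-squared of at least 0.7, called 11.2%.

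The median 24 h amplitude of the 9 genes was 0.397 on the log2(value + 1) scale, against 0.162 over all genes tested. The livers of a time point also spread more, with a median SD of 0.247 against 0.191. ZT5 means stood above ZT1 means in 9 of 9 genes, as they did in 51.8% of all genes. The highest mean fell at ZT5 for Klf2, Klf4, Klf10, Klf11 and Klf12, as in 21.0% of all genes. It fell at ZT9 for Klf13, Klf15 and Klf16 (16.0% of all genes) and at ZT17 for Klf3 (16.9%). All 6 genes called by the cosine had a fitted peak in the light phase, between ZT0 and ZT12, as had 51.6% of all genes so called.

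**Figure D2:**
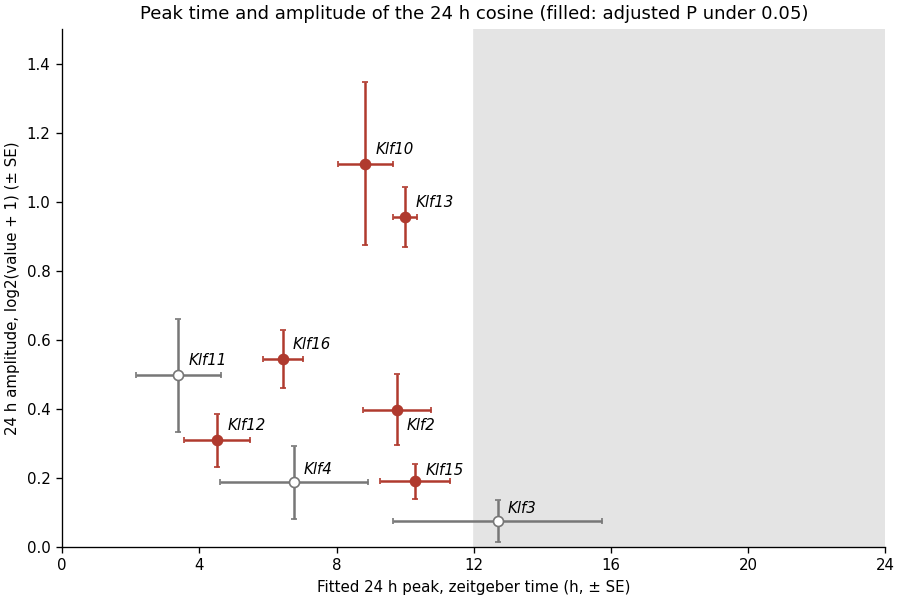
Fitted 24 h peak (x axis, zeitgeber time in h) against 24 h amplitude on the log2(value + 1) scale (y axis) for each gene, with SE bars; filled points passed limma's 24 h test and the dark phase is shaded. The called genes run from Klf12 at ZT4.52 to Klf15 at ZT10.3, and Klf10 and Klf13 have the highest amplitudes.

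Among the genes that encode SIN3A-binding factors, Klf13 had the lowest P-values. Klf13, a factor also known for its role in T lymphocytes, was measured at 20.7, 16.4 and 15.6 in the 3 livers of ZT1, at 41.0, 40.0 and 48.0 at ZT5 and at 72.6, 68.3 and 72.7 at ZT9. In the dark it was at 50.9, 53.8 and 57.8 at ZT13, at 25.9, 31.9 and 20.7 at ZT17 and at 24.6, 17.8 and 26.2 at ZT21. The livers of ZT9, ZT13 and ZT5, in this order, stood above all livers of lower-ranked time points with no overlap, whereas ZT17 overlapped ZT21, and ZT21 overlapped ZT1. The mean at ZT9 (71.2 ± 2.49, SD, n = 3) was 4.05 times that at ZT1 (17.6 ± 2.71). The F test gave an adjusted P-value of 2.05e-06 (limma), and the cosine an amplitude of 0.954 ± 0.0869 (SE, log2 scale) with a peak at ZT10.0 ± 0.348 h. Its q-value was 0.0104 by JTK and 0.00168 by MC. The CircaN cosine curve reached an R-squared of 0.917, at a fitted period of 20.4 h, near the lower limit of 20 h.

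Klf13 also changed at more steps of the day than any other member. It rose by a log2 fold change of 1.25 ± 0.16 (SE) from ZT1 to ZT5 (limma, adjusted P-value 0.000269) and by 0.72 ± 0.16 from ZT5 to ZT9 (0.0348), and it fell by 1.04 ± 0.16 from ZT13 to ZT17 (0.00705). The fall between ZT9 and ZT13 (-0.39, adjusted P-value 0.141) did not pass although the livers did not overlap. The rise from ZT5 to ZT9 was no longer called without ZT5 replicate 1 or 2 or without any single ZT9 liver, where its adjusted P-value was between 0.069 and 0.136, nor at a pseudocount of 0.1 (0.0517). Its F test, cosine and other steps were called under all 22 alternatives.

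Klf16, a smaller GC-box-binding repressor of the same group, was highest at ZT5 and ZT9. It was at 2.8, 2.14 and 3.39 at ZT1, at 4.34, 4.34 and 5.1 at ZT5 and at 5.41, 5.08 and 3.89 at ZT9. In the dark it was at 2.25, 2.91 and 2.82 at ZT13, at 1.96, 0.822 and 2.07 at ZT17 and at 2.54, 3.02 and 1.92 at ZT21. The livers of ZT5 and ZT9 overlapped each other and stood above all 12 of the rest, and ZT17 replicate 2 was the lowest. The F test gave an adjusted P-value of 0.00167 (limma), and the cosine an amplitude of 0.544 ± 0.0839 with a peak at ZT6.44 ± 0.589 h. The q-value was 0.0226 by JTK (0.06 without ZT17 replicate 2) and 0.00477 by MC. The CircaN cosine curve had an R-squared of 0.838, at a fitted period of 20.55 h. Klf16 fell by 0.66 ± 0.19 on the log2 scale from ZT9 to ZT13 (limma, adjusted P-value 0.041), a call lost under 9 of 22 alternatives, in which the adjusted P-value reached 0.146, and these include each ZT13 liver left out in turn.

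Klf10, also called TIEG1 for its early induction by TGF-beta, had the highest amplitude and the widest spread. It was at 6.33, 5.68 and 15.2 at ZT1, at 18.4, 72.1 and 77.4 at ZT5 and at 49.9, 18.7 and 70.4 at ZT9. In the dark it was at 32.3, 21.1 and 25 at ZT13, at 10.5, 13.7 and 18.4 at ZT17 and at 9.24, 14.4 and 12.1 at ZT21. ZT5 replicate 1 (18.4) and ZT9 replicate 2 (18.7) were level with the highest liver of ZT17, while the other 4 livers of these time points were at 49.9 or more. The SD within time points was 0.712 on the log2 scale, higher than in 99.2% of all genes.

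The mean of Klf10 at ZT5 (56.0 ± 32.7, n = 3) was 6.16 times that at ZT1 (9.09 ± 5.34), with no overlap. It rose by 2.37 ± 0.52 on the log2 scale over this step (limma, adjusted P-value 0.0137), and the rise was 3.03 without ZT5 replicate 1. The call was lost without ZT1 replicate 1 or 2 or ZT5 replicate 2 or 3, with adjusted P-values between 0.0515 and 0.0764. The F test (adjusted P-value 0.01) and the cosine (amplitude 1.11 ± 0.235, peak at ZT8.84 ± 0.81 h, adjusted P-value 0.00455) were called under all 22 alternatives. JTK gave a q-value of 0.128 and the CircaN cosine curve an R-squared of 0.514 (fitted period 20.85 h), neither of which passed.

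Klf11, or TIEG2, is the nearest relative of Klf10 and was lowest at ZT13. It was at 4.46, 6.68 and 11.8 at ZT1, at 13.1, 16.1 and 11.4 at ZT5 and at 6.77, 10.2 and 12.9 at ZT9. In the dark it was at 4.55, 3.08 and 4.81 at ZT13, at 6.33, 3.94 and 8.66 at ZT17 and at 8.27, 14.5 and 7.82 at ZT21. The lowest mean thus fell just after dusk (4.15 ± 0.935, n = 3), with no overlap with ZT5, where the mean was 3.26 times as high. The F test passed (limma, adjusted P-value 0.0223), but not without ZT5 replicate 2 (0.0547) or ZT13 replicate 2 (0.0643). The cosine did not pass (amplitude 0.496 ± 0.163, adjusted P-value 0.0608), and it passed under 6 of 22 alternatives. Klf11 fell by 1.07 ± 0.32 on the log2 scale from ZT9 to ZT13 (limma, adjusted P-value 0.0491), and this call was lost under 13 of 22 alternatives, with adjusted P-values up to 0.157.

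Klf3 and Klf12, whose proteins bind CtBP, did not pass the F test, with 24 h amplitudes of 0.0745 and 0.308 at percentiles 15.3 and 83.9 of all genes. Klf12, described as a repressor of the AP-2alpha gene, was at 7.58, 6.05 and 6.55 at ZT1, at 8.07, 8.17 and 6.26 at ZT5 and at 6.34, 5.54 and 6.51 at ZT9. It was at 5.12, 5.78 and 5.86 at ZT13, at 3.19, 6.45 and 3.02 at ZT17 and at 4.64, 6.26 and 6.26 at ZT21. ZT17 replicate 2 stood apart from the other 2 livers of its time point, which were the lowest of all 18. Klf12 passed the cosine test (amplitude 0.308 ± 0.077, peak at ZT4.52 ± 0.956 h, adjusted P-value 0.0141) and not the F test (limma, 0.0687). Without ZT17 replicate 2 the F test gave 0.00143, JTK a q-value of 0.0485 and MC one of 0.0329. Klf3, a repressor known from red blood cell and fat cell development, ranged from 38.2 to 59.1 over the 18 livers, with the lowest mean at ZT1 (43.2 ± 0.985) and the highest at ZT17 (54.9 ± 3.4). Its F test gave an adjusted P-value of 0.281 and its cosine one of 0.57 (limma), and neither passed under any alternative.

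Klf15, the most abundant member per kilobase, had a small 24 h component. It was at 71.9, 95.4 and 106.0 at ZT1, at 103.0, 123.0 and 102.0 at ZT5 and at 97.9, 117.0 and 123.0 at ZT9. It was at 110.0, 114.0 and 110.0 at ZT13, at 108.0, 93.7 and 106.0 at ZT17 and at 89.8, 88.9 and 86.4 at ZT21. ZT9 (113 ± 13.2, n = 3) was 1.28 times ZT21 (88.4 ± 1.74), with no overlap between the livers. The cosine had an amplitude of 0.189 ± 0.0508 with a peak at ZT10.3 ± 1.02 h (limma, adjusted P-value 0.0212), and was called under all 22 alternatives, with adjusted P-values up to 0.0482. The F test did not pass (0.135).

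Klf2 and Klf4, known as flow-responsive factors of the endothelium, were both highest at ZT5 and lowest at ZT1. Klf2 was at 3.91, 2.14 and 1.67 at ZT1, at 4.34, 5.49 and 7.85 at ZT5 and at 4.21, 4.99 and 4.36 at ZT9. It was at 6.6, 4.14 and 4.39 at ZT13, at 3.53, 3.5 and 4.17 at ZT17 and at 3.19, 2.53 and 2.85 at ZT21. The ZT1 and ZT21 livers lay below all livers of ZT5, ZT9 and ZT13. The F test gave an adjusted P-value of 0.0155 and the cosine an amplitude of 0.397 ± 0.102 with a peak at ZT9.76 ± 0.983 h (limma, adjusted P-value 0.0167), both called under all 22 alternatives. Klf2 rose by 0.97 ± 0.21 on the log2 scale from ZT1 to ZT5 (limma, adjusted P-value 0.0147). The call was lost without ZT1 replicate 2 or 3 or ZT5 replicate 3, where the log2 fold change was 0.896, 0.78 and 0.769 and the adjusted P-value between 0.0753 and 0.081.

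Klf4, which also acts in macrophages and in pluripotent cells, was at 0.519, 1.5 and 0.335 at ZT1 and at 1.58, 1.58 and 2.77 at ZT5. In the other 12 livers it ranged from 0.605 to 1.46, below every ZT5 liver. The difference between ZT5 and ZT1 (log2 fold change 0.77 ± 0.22, adjusted P-value 0.0557) and the F test (0.12) did not pass by limma. The F test passed only without ZT1 replicate 2 (0.0206), and without ZT5 replicate 3 it gave 0.418.

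Markers of the cells in which Klf2 and Klf4 are best known were summed by time point, and the sums were not tested. Summed over 10 sinusoidal endothelial genes, the level was 189 ± 39.7 at ZT1, 253 ± 33.6 at ZT5, 224 ± 28.1 at ZT9, 209 ± 37.3 at ZT13, 174 ± 49.2 at ZT17 and 165 ± 38.7 at ZT21 (SD, n = 3), from 120 to 291 in single livers. Of these genes 0 passed limma's F test, against 26.3% of all genes, and 4 passed the 24 h cosine, against 35.3%. At an unadjusted P-value under 0.05, 3 passed the F test, against 5772 of the 14449 genes tested. Summed over 7 Kupffer cell genes the level was 186 ± 67.6 at ZT1, 246 ± 39.9 at ZT5, 248 ± 27.3 at ZT9 and 145 ± 31.1 at ZT21, from 110 to 291 in single livers. Of these 7 genes 1 passed the F test and 4 the cosine, against the same shares of all genes. No marker of either list was at its lowest possible value in any liver. What part the differences in these sums between time points have in the values of Klf2 and Klf4 was not tested. In whole liver, fewer cells of a type and less RNA per cell cannot be told apart. Markers of hepatocytes were abundant throughout, with a summed level between 71500 and 102000, lowest on average at ZT9 (74500 ± 2790) and highest at ZT17 (95000 ± 6610). Of these 6 genes 3 passed the F test, against 26.3% of all genes, namely Ttr (limma, adjusted P-value 0.0158), Cyp2e1 (0.0162) and Ass1 (0.023). By the cosine 2 passed, against 35.3%. ZT5 replicate 1, one of the livers low in Klf10, had the highest sums of endothelial (291), Kupffer (291), stellate (178) and other blood cell markers (272). ZT9 replicate 2, also low in Klf10, had 252, 273, 98.4 and 42.7 in the same order. Within ZT9 it was highest in the endothelial and Kupffer sums and lowest in the other blood cell sum. The hepatocyte sums of these livers were 93700 and 71500. In ZT5 replicate 1, Klf2 was at 4.34, the lowest of ZT5, and Klf4 at 1.58. How these sums relate to the genes in single livers was not tested.

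**Figure D3:**
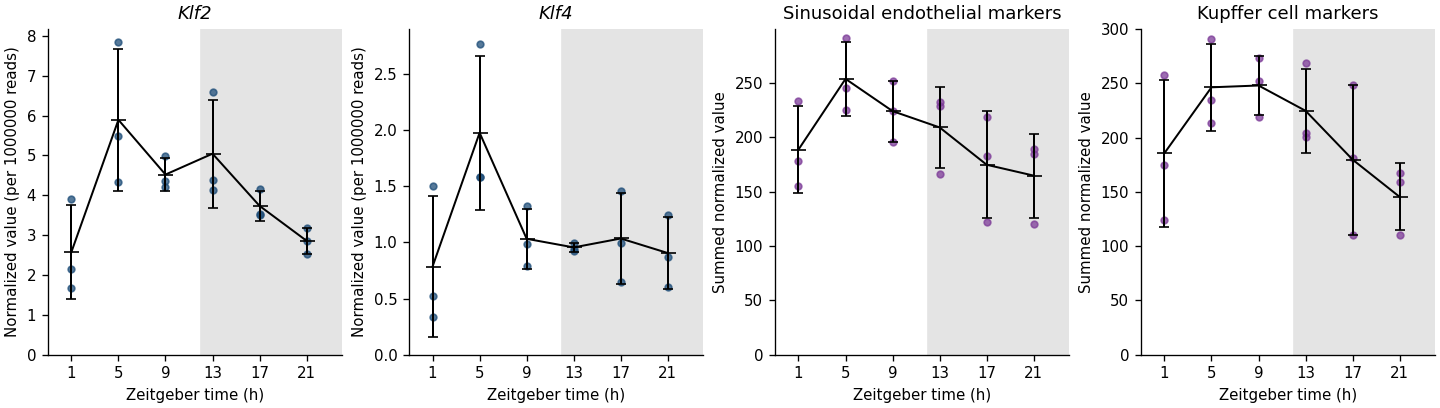
Klf2 and Klf4 (normalized value per 1000000 reads) and the summed normalized values of 10 sinusoidal endothelial and 7 Kupffer cell markers (y axes, linear from 0) against zeitgeber time (x axes, h), with 1 point per liver, the mean of 3 and its SD; the dark phase is shaded. Klf2, Klf4 and the endothelial sum (253) share their highest mean at ZT5, as do 21.0% of all genes. The stellate (121) and other blood cell (138) sums, not drawn, are also highest at ZT5, and the Kupffer sum is highest at ZT9.

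Steps between successive time points showed where in the day these genes moved. From ZT1 to ZT5, 3 of 9 rose (Klf2, Klf10 and Klf13), against 2.53% of all genes. At an unadjusted P-value under 0.05, 7 of 9 were higher, against 1481 of the 14449 genes tested. Over the same step 0 fell (0 unadjusted), against 2.36%. From ZT5 to ZT9, Klf13 rose, against 0.637% of all genes, and 0 fell, against 0.9%. At an unadjusted P-value under 0.05 Klf4 fell, as did 949 of the 14449 genes tested. From ZT9 to ZT13, the step across dusk, 2 fell (Klf11 and Klf16), against 4.6% of all genes, and 0 rose (0 unadjusted), against 4.64%. From ZT13 to ZT17, Klf13 fell, against 0.533%, and 0 rose (0 unadjusted), against 0.671%. From ZT17 to ZT21, limma called 0 rises (2 unadjusted, Klf12 and Klf16) and 0 falls (0 unadjusted), against 0.941% and 0.568% of all genes. Unadjusted, 1164 of the 14449 genes tested rose over this step. From ZT21 to ZT1 limma called 0 rises (0 unadjusted) and 0 falls (1 unadjusted, Klf13), against 0.0277% and 0.104%. Unadjusted, 720 of the 14449 genes tested fell over this step. All 7 called steps lay between ZT1 and ZT17.

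**Figure D4:**
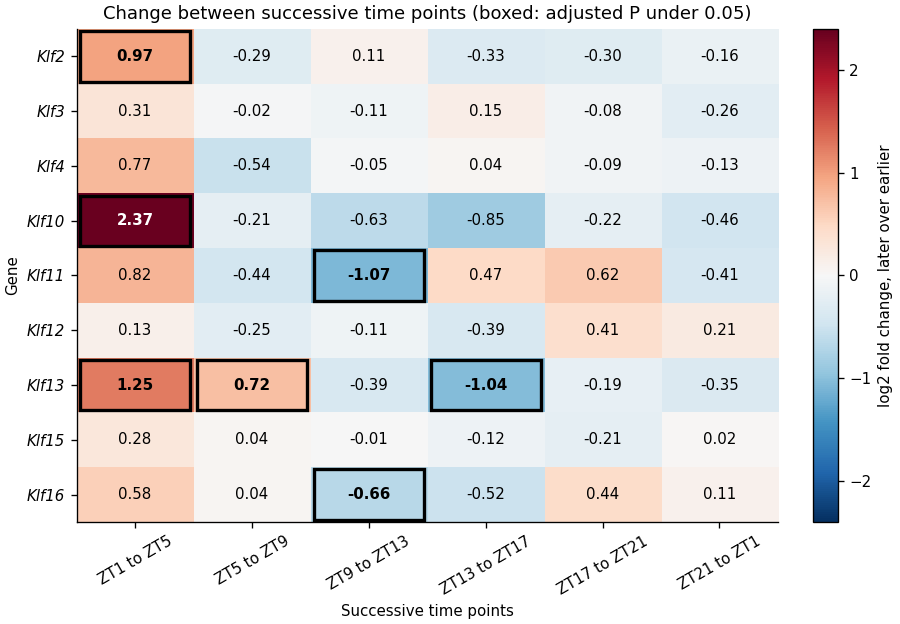
Log2 fold change, later over earlier, on the log2(value + 1) scale (colour and printed value) for each gene (rows) and each step between successive time points (columns); boxes mark an adjusted P-value under 0.05 by limma. The values of the ZT1 to ZT5 column are above 0 in 9 of 9 genes, and the 7 boxes lie in the columns up to ZT17.

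The scatter between mice of the same time point was compared between the 9 genes. Of 36 pairs of members, 0 had correlated deviations from the time point means after adjustment over the 36 pairs (exact permutation of livers within time points, 46656 arrangements, two-sided), and 3 had an unadjusted P-value under 0.05. The lowest coefficient was that of Klf11 and Klf13 (Pearson's r = -0.785 over 18 livers, exact permutation P-value 0.00266, adjusted 0.0837), and Spearman's rho was -0.756 (exact permutation P-value 0.00478, adjusted 0.172). The highest was that of Klf11 and Klf15 (r = 0.762, exact permutation P-value 0.00465, adjusted 0.0837), with a rho of 0.686 (0.0106, adjusted 0.191). Without the 2 livers farthest from the median in Klf11, r was -0.755 and 0.63. Klf13 and Klf15 had an r of -0.55 (exact permutation P-value 0.0141, adjusted 0.169) and a rho of -0.598 (0.0193, adjusted 0.232), with r = -0.677 without the 2 livers farthest in Klf13. The low livers of Klf10 at ZT5 and ZT9 deviated by -1.31 and -1.08 on the log2 scale. In the same livers Klf11 deviated by -0.03 and 0.07, and Klf13 by -0.06 in each.

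**Figure D5:**
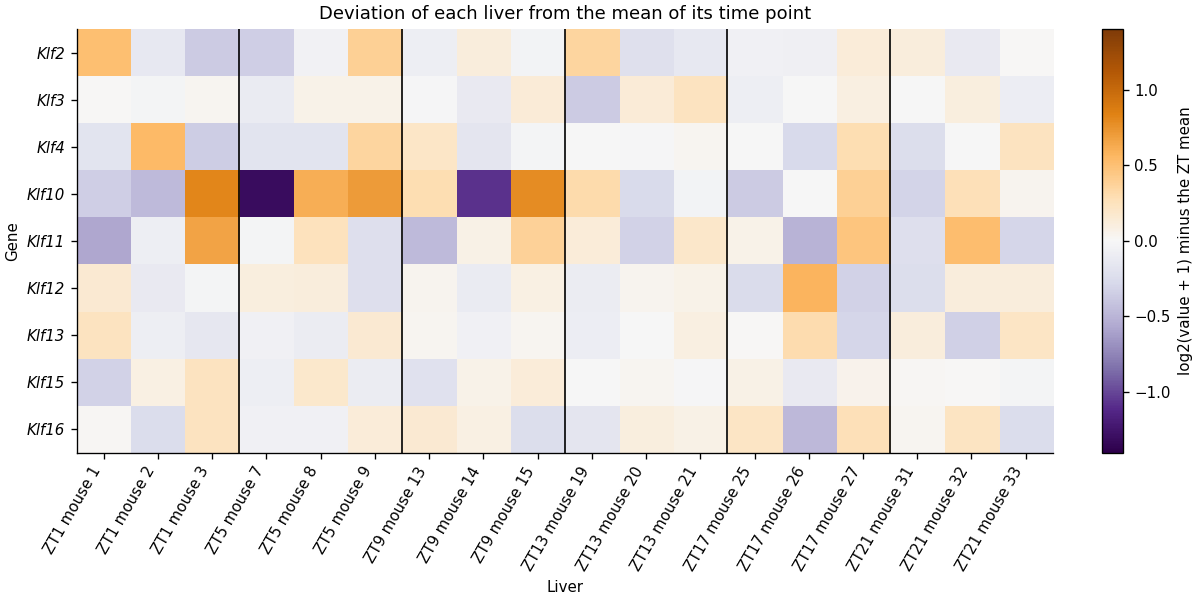
Deviation of each liver (columns, by time point and mouse number) from the mean of its time point on the log2(value + 1) scale (colour) for each gene (rows). Klf10 holds the darkest cells, at -1.31 in mouse 7 (ZT5 replicate 1) and -1.08 in mouse 14 (ZT9 replicate 2), where the other rows are pale.

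Genes with the most similar pattern were sought for each of the 5 members called by the F test, by Pearson's r over the 18 livers on the log2(value + 1) scale, as a description. Klf13 was closest to Upp2, a uridine phosphorylase (0.96), and to Ciart, a clock repressor (0.949). Klf16 was closest to Maff, a small MAF factor (0.923), Coro1b (0.908) and Abca6 (0.906), and Klf10 to Tob2 (0.911), the glucose transporter gene Slc2a2 (0.91) and the clock-linked repressor gene Bhlhe40 (0.9). Klf11 was closest to Dixdc1 (0.863), Tsc1, a brake on mTOR signalling (0.84), and Rfwd3 (0.834). Klf2 was closest to the glutamate transporter gene Slc1a2 (0.824), Hpcal1 (0.823) and Arhgef15, an exchange factor known from endothelium (0.823). The livers share their time points, so that any pair of genes with the same peak scores high.

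The other Klf genes of the table gave 2 of 4 calls by the F test and 3 of 4 by the 24 h cosine, against 26.3% and 35.3% of all genes. Klf9, a glucocorticoid-induced member with a SIN3A-binding helix, had its highest mean at ZT5 (82.9 ± 7.88) and its lowest at ZT17 (34.7 ± 1.18; limma, adjusted P-value 8.1e-05). Klf1, the red blood cell member, was at 3.47 ± 0.922 at ZT5 and 1.3 ± 0.559 at ZT1 (0.00853). Klf6 (0.18) and Klf7 (0.0807) did not pass the F test, and Klf7 passed the cosine (0.00823), with an amplitude of 0.316 ± 0.0729 and a peak at ZT1.42 ± 0.881 h. Of the related SP factors, which bind the same GC-rich sites, 3 of 5 passed, namely Sp4, Sp1 and Sp3, and each had its lowest mean at ZT13, as Klf11 had.

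Partners of the members gave 2 of 8, 0 of 2 and 1 of 4 calls by the F test, against 26.3% of all genes. Of 8 genes of the SIN3-HDAC complex, Sin3a (highest mean 28.2 ± 0.603 at ZT5, lowest 20.5 ± 0.523 at ZT17; limma, adjusted P-value 0.000303) and Sin3b (0.0159) passed the F test. Sin3a, which encodes the partner of the Klf10, Klf11, Klf13 and Klf16 proteins, peaked at ZT4.51 ± 0.501 h with an amplitude of 0.248 ± 0.0326. Of the CtBP genes bound by Klf3 and Klf12, 0 of 2 passed (0 unadjusted). Of 4 acetyltransferase genes, Kat2b (PCAF), a coactivator, passed (0.000214), with its highest mean at ZT9. By the 24 h cosine 3 of these 4 passed, namely Kat2b (3.02e-05), Crebbp (0.0152) and Kat2a (0.0357), against 35.3% of all genes. The cosine passed for 1 of the 8 SIN3-HDAC genes (Sin3a) and for 0 of the 2 CtBP genes.

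Genes set around single members gave further counts. Of 9 amino acid catabolism and gluconeogenesis genes linked to Klf15, 5 passed the F test and 6 the cosine, against 26.3% and 35.3% of all genes. Gpt2, an alanine aminotransferase, had its highest mean at ZT13 (483 ± 47.2; limma, adjusted P-value 0.00108), as had Prodh, the proline-degrading enzyme (250 ± 28.9, 0.00127), and Gpt and Hpd. Pck1, of gluconeogenesis, was highest at ZT9 (1590 ± 528, 0.00286). Of 13 TGF-beta signalling genes around Klf10 and Klf11, 5 passed, among them both receptor genes, Tgfbr2 (36.3 ± 2.08 at ZT9, 0.0021) and Tgfbr1 (40.8 ± 3.27 at ZT9, 0.00389), and 3 inhibitors and transducers, Skil (0.00089), Ski and Smad3. Skil had its lowest mean at ZT9 (12.9 ± 2.19).

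Of 9 endothelial genes linked to Klf2 and Klf4, 3 passed the F test, against 26.3% of all genes. They were Mef2a (limma, adjusted P-value 0.00655), Map2k5 (0.0188) and Vcam1 (0.0323), and the first 2 encode members of the pathway that induces Klf2. Map2k5 had its highest mean at ZT5, as Klf2 had, and Mef2a was at 37.4 ± 4.56 at ZT5 and 37.2 at ZT1 and ZT9. Vcam1 was highest at ZT13 (16.3 ± 1.04). The genes of this list that did not pass had their highest means at ZT5, ZT9, ZT13 or ZT21. Of 6 glucocorticoid response genes, 4 passed the F test, against the same 26.3%. Among these, Fkbp5 was highest at ZT13 (119 ± 82.6), Tsc22d3 at ZT17 (110 ± 15.7), and Per1 and the receptor gene Nr3c1 at ZT9. All 12 core clock and output genes passed, against the same 26.3%. Of the 3 with the lowest P-values, Dbp (111 ± 3.71) and Tef (257 ± 13.0) shared the ZT9 maximum of Klf13. The third, Npas2, was highest at ZT21 (11.5 ± 1.94). The other genes of the list had their highest means at ZT1, ZT5, ZT9, ZT13 or ZT21. The lists had median 24 h amplitudes on the log2 scale of 0.398 (other Klf genes), 0.205 (SP), 0.0972 (SIN3-HDAC), 0.0724 (CtBP), 0.187 (acetyltransferases), 0.378 (Klf15-linked), 0.241 (TGF-beta), 0.229 (endothelial), 0.488 (glucocorticoid) and 1.63 (clock), beside 0.397 for the 9 genes.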

How the data were processed

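Mouse liver RNA was sequenced as 50-nt single reads (NEBNext Ultra libraries, HiSeq2500). According to the submitters' notes and the methods, the authors used CASAVA 1.8.2, cutadapt and RSEM 1.2.20 on GRCm38 with Ensembl annotation, and deposited a signal, namely estimated counts normalized with limma. From the values, it equals the estimated reads plus 0.5, multiplied by a factor of each liver. The scale is nominally 1000000 reads, and the column totals ran from 941088 (ZT5 replicate 1) to 1077230 (ZT17 replicate 2). The recovered reads were not whole for enough genes (41.1% to 50.0% per liver, at a tolerance of 0.01 reads), so that no count test was run. Of 14451 genes, 2 at the lowest value in all livers were left out. limma 3.58.1 (R 4.3.3) was fitted to log2(value + 1), which understates changes of low genes, over all 18 livers. P-values were adjusted by Benjamini-Hochberg over all genes and called under 0.05. JTK, MC and the cosine curve of CircaN were rewritten in Python 3.11.15 with numpy 2.4.6 and scipy 1.17.1, and other CircaN curves were not analysed here. All of these were checked on simulated data. The livers of a time point came from separate mice, and RNA quality chose 3 of the mice of each group for sequencing. The members and all lists were chosen with earlier results of these data known. Named besides the members were, from each list, up to 3 genes with the lowest P-value of the F test, the other Klf genes, and for each member called by that test the 3 non-member genes of mean value 1 or more with the highest r, of which 1 is not reported here. Gpt, Hpd, Ski, Smad3, Nr3c1, Ttr, Cyp2e1 and Ass1 were named after their values were seen. Gene lengths and overlaps came from GENCODE M21 on GRCm38.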

Additional observations from a re-analysis of the deposited data

How the results depend on the processing

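Calls were recomputed at a pseudocount of 0.1, over the 12480 genes of mean value 1 or more, with each liver rescaled to the same total, with a mean-variance trend in limma, with JTK at 24 h only, MC by Bonferroni combination, CircaN on the log scale or at 24 h, and without each liver in turn. With rescaled totals MC called 4 members, Klf12 and Klf15 being added. At a pseudocount of 0.1 limma called 4 steps between successive time points in place of 7. Without single livers it called 3 to 10 steps, 3 without ZT5 replicate 2 and 4 without ZT5 replicate 3 or ZT9 replicate 2. The other counts stayed within 1.5 times those reported, and no called step changed direction. Of 1324 values for single genes under an alternative, 1271 kept their side of the threshold, 38 lost a call and 15 gained one. Depth limits Klf4 most, at 3 to 66 estimated reads. No paired analysis was possible because the labels give each liver a mouse number of its own, and the replicate numbers 1 to 3 used here only name the livers of a time point.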

Other observations

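The deviations of Klf10 from its time point means were also compared with those of all genes of mean value 1 or more, a choice made after its values were seen. The 3 closest genes over the 18 livers were Hcn3 (Pearson's r = 0.899), an ion channel gene, Slc37a4 (0.896), the glucose-6-phosphate transporter, and Pklr (0.865), the liver pyruvate kinase. In ZT5 replicate 1 and ZT9 replicate 2, where Klf10 was low, Pklr was at 170 and 265, against 321 and 404 in the other livers of ZT5 and 505 and 491 in those of ZT9. Slc37a4 was at 93.7 and 139 in the same pair of livers, against 123 and 152 and against 206 and 210. Hcn3 was at 3.58 and 11.3, against 24.2 and 58.2 and against 56.0 and 55.7. These are descriptions of genes picked for their likeness, with no test.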
